A study of Mus musculus with 8 samples.

Results

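The genes described are the heat shock genes of the cytosol and the small heat shock proteins that are abundant in oxidative muscle, 10 genes chosen by name: Hspa1a, Hspa1b, Hspa8, Hsp90aa1, Dnaja1, Dnajb1, Hspb1, Hspb6, Hspb7 and Cryab. All 10 were found among 43239 distinct names. Hspa1a and Hspa1b share 1 value, so the 10 genes gave 9 values, and all 9 were among the 11878 genes tested. The samples were quadriceps muscles of female mice aged 6 months, 4 with the genotype Mss51-/- (KO) and 4 wild type (WT), with 1 library per mouse, per the labels. The labels give neither the strain nor the way the allele was made. The values are FPKM as the authors deposited them, that is, fragments scaled to the length of the transcript and to the mapped fragments of the library.

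Heat shock proteins are chaperones, which bind unfolded proteins and keep them from clumping or help them to fold. Hsp70 proteins work in cycles of ATP with Hsp40 partners, and Hsp90 proteins act later on a narrower set of clients. Small heat shock proteins use no ATP and hold unfolding proteins in large assemblies. In striated muscle several of them bind the Z-disc, desmin and titin, and slow and oxidative muscles are known to hold more of them than fast glycolytic ones. The factor HSF1 switches on the inducible members under heat or other stress, through sites built from repeats of GAA and its complement.

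The targeted gene went against the genotype labels. Mss51 had 340, 201, 216 and 207 FPKM in the libraries labelled KO, against 22.9, 37.0, 27.5 and 24.8 FPKM in those labelled WT (log2 fold change 3.07, SE 0.20; limma adjusted p = 0.000643). Each file holds 1 value for the whole locus, so the exons read are not shown, and every direction below is that of the labels. Rough depths, in 1e6 fragments, were 40.6 to 55.7 in the libraries labelled KO and 41.4 to 57.9 in those labelled WT, an estimate that preset bounds limit. Of the defining skeletal muscle markers, the creatine kinase Ckm had 9230 to 11554 FPKM in the KO group and 10545 to 12716 FPKM in the WT group, while the myosin Myh4 is listed at 0 in all 8. Entries at 0 for such genes can be failed estimates, and Tnnt3 is at 0 in 4 of the 8 libraries. The heat shock genes were above 0 in every library. KO replicate 1 stood apart from the other KO libraries in oxidative fibre genes, so the heat shock genes and the marker counts are given with and without it.

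The 2 inducible Hsp70 genes share a value, listed for a locus from 34956428 to 34972156 that covers both. The reason for the join was not tested. They lie on the minus strand of chromosome 17 in mm10, Hspa1a (ENSMUSG00000091971) at 34969190 to 34972156 and Hspa1b (ENSMUSG00000090877) at 34956436 to 34959238, 9951 bases apart. Their coding sequences, of 1923 and 1926 bases, match at 99.43% of aligned positions, with 8 mismatches and a gap of 3 columns. The 250 bases before their start sites, shown from RefSeq (GRCm38.p6), differ at 3 positions. Capitals mark GAANNTTC, a pair of HSF1 units, which lies in both 104 bases before the start.

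Hspa1a, chr17:34972157-34972406, minus strand: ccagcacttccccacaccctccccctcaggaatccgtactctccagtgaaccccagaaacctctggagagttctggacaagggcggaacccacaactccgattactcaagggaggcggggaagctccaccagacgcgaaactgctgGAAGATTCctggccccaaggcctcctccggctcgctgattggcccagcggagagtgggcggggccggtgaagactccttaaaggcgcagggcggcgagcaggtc

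Hspa1b, chr17:34959239-34959488, minus strand: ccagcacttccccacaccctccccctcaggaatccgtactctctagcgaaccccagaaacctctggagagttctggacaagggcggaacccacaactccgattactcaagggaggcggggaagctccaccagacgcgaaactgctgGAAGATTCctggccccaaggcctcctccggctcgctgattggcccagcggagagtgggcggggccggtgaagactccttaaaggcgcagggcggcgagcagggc

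The same stretch is shown for 3 small heat shock protein genes, because Hspb6 and Hspb7 stood higher in most KO libraries and Hspb1 did not. Hspb6 has 2 windows, both inside the annotated gene. The one with a match is printed, and the other, at 30552290 to 30552539, held no match.

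Hspb1, chr5:135887669-135887918, plus strand: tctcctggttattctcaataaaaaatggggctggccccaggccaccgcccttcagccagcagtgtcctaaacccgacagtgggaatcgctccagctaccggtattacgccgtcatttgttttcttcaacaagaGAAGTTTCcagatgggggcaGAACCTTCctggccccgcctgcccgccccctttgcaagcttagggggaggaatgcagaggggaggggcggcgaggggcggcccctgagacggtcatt

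Hspb6, chr7:30553051-30553300, plus strand: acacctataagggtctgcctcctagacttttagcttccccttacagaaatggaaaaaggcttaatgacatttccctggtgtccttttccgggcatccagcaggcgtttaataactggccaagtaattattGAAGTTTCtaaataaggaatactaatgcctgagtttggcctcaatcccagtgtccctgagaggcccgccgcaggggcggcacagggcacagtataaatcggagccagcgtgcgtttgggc

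Hspb7, chr4:141420529-141420778, plus strand: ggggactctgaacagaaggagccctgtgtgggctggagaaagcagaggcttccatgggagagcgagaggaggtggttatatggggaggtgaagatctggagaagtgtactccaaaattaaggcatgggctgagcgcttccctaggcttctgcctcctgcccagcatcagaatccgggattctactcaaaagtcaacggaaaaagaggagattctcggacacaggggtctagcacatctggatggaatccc

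Windows were at hand for 7 of the 10 genes, 11 windows in all. GAANNTTC or TTCNNGAA, each its own reverse complement, was searched in the 250 bases. It was found in 5 windows, those of Hspa1a, Hspa1b, Hspb1 (GAAGTTTC and GAACCTTC, 117 and 97 bases before the start), 1 of 2 of Hspb6 and 1 of 3 of Dnaja1, against 12.84% of all 32851 windows of that length. The same pair followed by 1 more unit in step, on either strand, was in none of the 11, against 0.47% of all windows. The windows of Hspb7 and Dnajb1 held no match. These are matches of letters and not measured sites. The windows of Hspa1a and Hspa1b are near copies, and 2 of those of Dnaja1 overlap, so the 11 windows are not separate cases.

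The levels of the genes spanned a wide range, with the small heat shock proteins on top. In the WT group, Cryab averaged 741 ± 107 FPKM and Hspb6 712 ± 76.4 FPKM (SD, n = 4), and their ranges overlapped. Hspa8 followed at 280 ± 22.3 FPKM, clear of both neighbours. Hspb1 at 145 ± 18.3 FPKM and Hspb7 at 134 ± 35.1 FPKM overlapped each other. Dnaja1 at 20.03 ± 1.43 FPKM, Hsp90aa1 at 13.7 ± 2.31 FPKM, Dnajb1 at 7.65 ± 1.35 FPKM and the joined Hspa1a and Hspa1b at 4.33 ± 0.755 FPKM came last, with no overlap between neighbours. The 4 small heat shock proteins made up 85.2%, 90.6%, 85.3% and 90.4% of the summed FPKM of all 9 values in KO replicates 1 to 4, against 83.1%, 85.4%, 85.3% and 82.6% in WT replicates 1 to 4. The inducible genes were a small part of this sum in both groups.

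No heat shock gene differed between the groups at an adjusted p under 0.05, 0 of 9 higher and 0 of 9 lower in limma, where 0.0505% of all tested genes passed as higher and 0% as lower. At an unadjusted p under 0.05, Cryab and Hspb6 were higher, 2 of 9, where 7.5% of tested genes were higher and 2.76% lower. The groups overlapped in all 9 values, while 3.89% of tested genes did not overlap and were higher and 1.61% were lower. Without KO replicate 1, 0 of 9 passed in either direction (0.951% of tested genes as higher, 0.101% as lower). Cryab, Hspb6 and Hspb7, 3 of 9, then lay above all WT libraries, where 9.35% of tested genes did not overlap and were higher and 4.51% were lower. KO replicate 1 was the lowest KO library in these 3 genes and was left out with results known. The fit and the count without it are therefore no separate evidence of a difference. The plot of FPKM by library shows where the overlap comes from in Cryab, Hspb6 and Hspb7: 3 KO libraries lie above the WT libraries and 1 lies among them. In Hspb1 only KO replicate 2 lies above them.

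**Figure D1:**
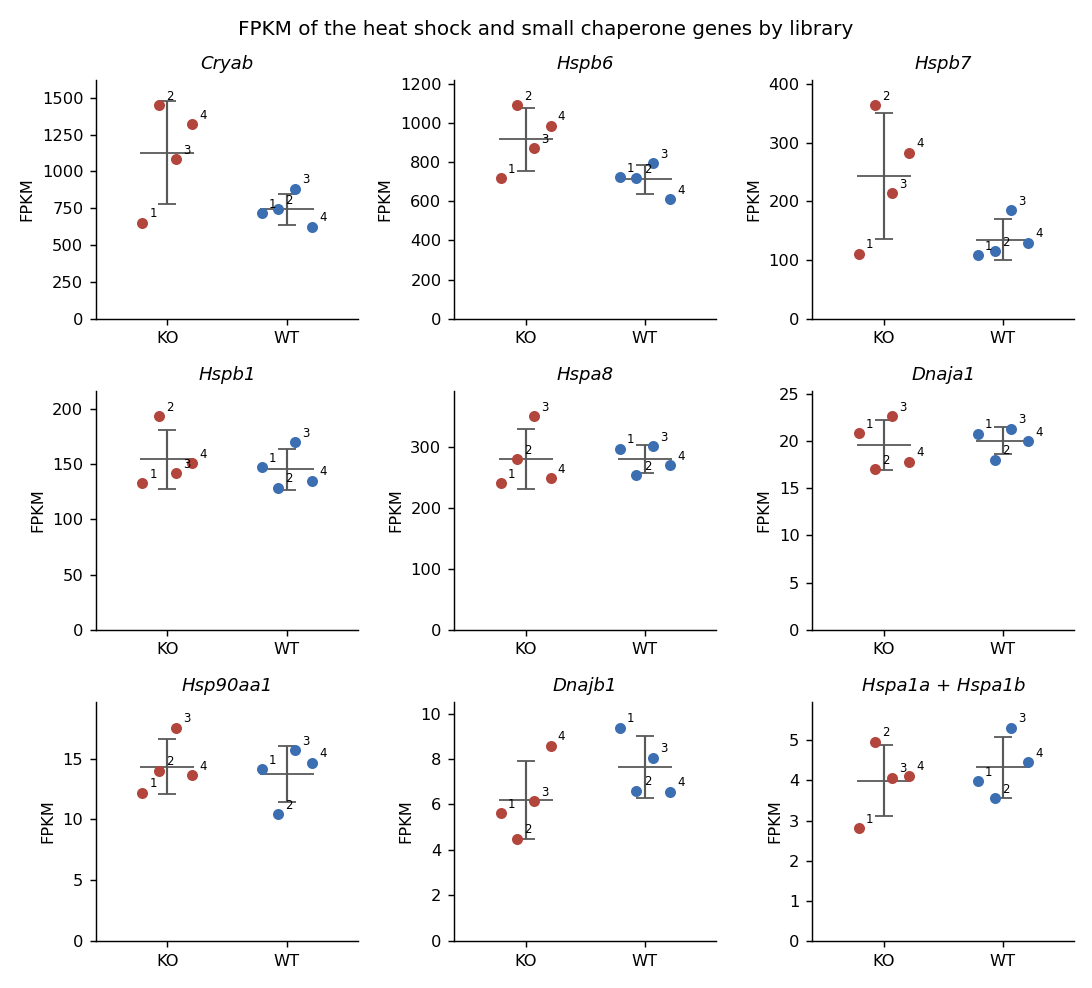
FPKM (linear axes from 0) of the 9 values in each library, with KO left of WT; numbers are replicates, and bars give the mean and SD of 4 libraries. For Cryab, Hspb6 and Hspb7, KO replicates 2, 3 and 4 lie above all WT libraries and KO replicate 1 lies within or next to them.

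Cryab encodes alpha-B-crystallin, the main small heat shock protein of striated muscle, which binds desmin and titin. It had 652, 1448, 1084 and 1321 FPKM in KO replicates 1 to 4, against 716, 743, 881 and 624 FPKM in WT replicates 1 to 4. KO replicates 2 to 4 exceeded every WT library, and KO replicate 1 lay inside the WT range. Cryab averaged 1126 ± 351 FPKM in KO libraries and 741 ± 107 FPKM in WT libraries (SD, n = 4). Its log2 fold change was 0.55 (95% interval 0.02 to 1.09, limma unadjusted p = 0.0448, adjusted p = 0.472). Without KO replicate 1, the lowest KO library here, it was 0.79 and did not pass (limma adjusted p = 0.0546). In these bulk samples, more cells of a type and more RNA per cell cannot be told apart.

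Hspb6, also called Hsp20, is a small heat shock protein of muscle whose phosphorylated form is known for relaxing smooth muscle. It had 720, 1092, 871 and 986 FPKM in KO replicates 1 to 4, against 724, 718, 796 and 611 FPKM in WT replicates 1 to 4. The pattern is that of Cryab, with KO replicate 1 among the WT libraries and the other KO libraries above them. On the log2 scale the fold change was 0.35 (95% interval 0.04 to 0.67, limma unadjusted p = 0.0314, adjusted p = 0.435), or 0.46 without KO replicate 1 (adjusted p = 0.130). The gene overlaps Proser3 and Lin37 on the opposite strand, and the strand setting is not given, so its value is uncertain to that extent.

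Hspb7, a heart and muscle member that binds filamin C, had the widest spread of the 9 values. It had 110, 363, 214 and 283 FPKM in KO replicates 1 to 4, against 108, 115, 185 and 129 FPKM in WT replicates 1 to 4. KO replicate 1 was as low as the lowest WT libraries, and KO replicate 2 was the highest of all. Its log2 fold change was 0.76 (95% interval -0.02 to 1.53, limma unadjusted p = 0.0539, adjusted p = 0.498), or 1.09 without KO replicate 1 (adjusted p = 0.0885). The coefficient of variation was 44.2% in the KO group and 26.1% in the WT group.

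Hspb1, also called Hsp25 in mice, is a small heat shock protein that is both abundant in muscle and heat-inducible, and it protects actin filaments. It had 133, 193.1, 142 and 151 FPKM in KO replicates 1 to 4, against 147, 129, 170 and 135 FPKM in WT replicates 1 to 4. The groups lay across each other, with KO replicate 2 the highest. The log2 fold change was 0.08, with a 95% interval of -0.22 to 0.38 (limma adjusted p = 0.861). It was -0.13 after rescaling to an equal sum of named genes, where the median of all genes moved to -0.18, -0.02 with quantile normalization and -0.03 without KO replicate 2.

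The inducible Hsp70 pair, low in unstressed tissue and raised by heat, stood at 2.81, 4.96, 4.06 and 4.12 FPKM in KO replicates 1 to 4, against 3.97, 3.56, 5.32 and 4.46 FPKM in WT replicates 1 to 4. The groups overlapped almost entirely. The log2 fold change of the joined value was -0.11 (95% interval -0.50 to 0.27; exact permutation p = 0.571, two-sided, where 0.0286 is the smallest possible), and it was 0.02 without KO replicate 1. Dnajb1, the inducible Hsp40 that hands substrates to Hsp70, had 5.62, 4.49, 6.15 and 8.58 FPKM in KO replicates 1 to 4, against 9.38, 6.61, 8.05 and 6.56 FPKM in WT replicates 1 to 4. Most KO libraries were below the WT range, but KO replicate 4 was inside it. For Dnajb1 the log2 fold change was -0.30 (95% interval -0.73 to 0.12, limma adjusted p = 0.623).

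Hsp90aa1, the inducible Hsp90 of the cytosol, which keeps kinases and receptors in shape, had 12.2, 14.0, 17.6 and 13.6 FPKM in KO replicates 1 to 4, against 14.1, 10.4, 15.7 and 14.6 FPKM in WT replicates 1 to 4. The groups overlapped, and the log2 fold change was 0.07 (95% interval -0.27 to 0.40, limma adjusted p = 0.914); it was -0.14 after rescaling to an equal sum of named genes, -0.03 without KO replicate 3 and -0.06 without WT replicate 2. Its constitutive partner gene Hsp90ab1 was far higher, and Hsp90aa1 stood at 0.0316 ± 0.000702 of it in the KO group and 0.0330 ± 0.00535 in the WT group (SD, n = 4, ratio of FPKM). Dnaja1, an Hsp40 with a lipid anchor, had 20.9, 17.0, 22.6 and 17.8 FPKM in KO replicates 1 to 4, against 20.8, 18.0, 21.3 and 19.997 FPKM in WT replicates 1 to 4. Its log2 fold change was -0.04 (95% interval -0.27 to 0.20, limma adjusted p = 0.928), or 0.02 without KO replicate 2 and 0.00 without KO replicate 4. The gene overlaps Smu1 on the opposite strand.

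Hspa8, the Hsp70 that cells make without stress, had 240, 280, 349 and 249 FPKM in KO replicates 1 to 4, against 296, 253, 300 and 269 FPKM in WT replicates 1 to 4. KO libraries lay on both sides of the WT range. The log2 fold change was -0.01 (95% interval -0.30 to 0.27, limma adjusted p = 0.978), and its sign turned in several alternatives, with values up to 0.05. For Hspa8 and the inducible genes the intervals reach from -0.73 to 0.40, so a p that misses the threshold does not show that these genes were level.

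**Figure D2:**
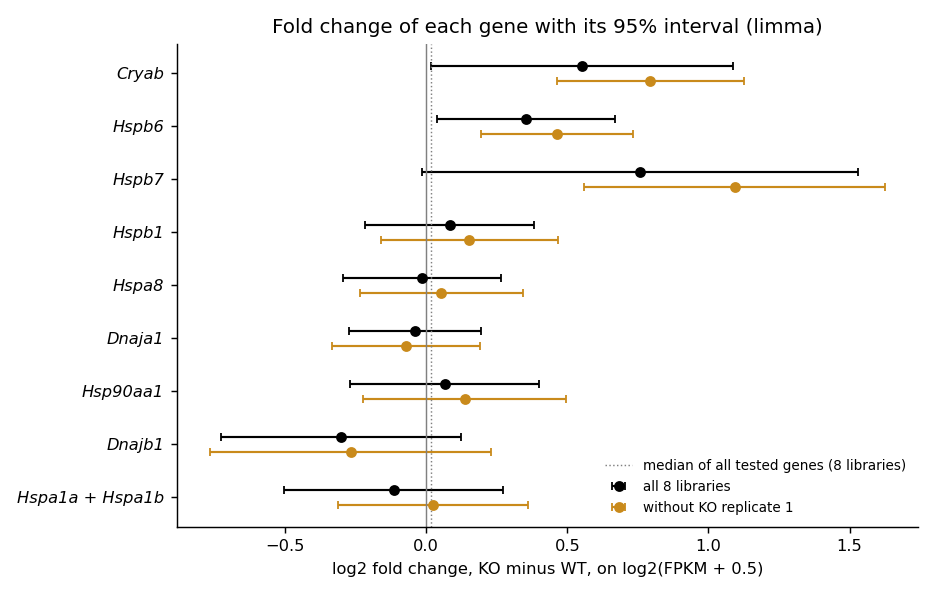
Log2 fold change, KO minus WT, on log2(FPKM + 0.5) for the 9 values, with 95% intervals from limma over all 8 libraries (black) and without KO replicate 1 (orange). Hspb7 (0.76), Cryab (0.55) and Hspb6 (0.35) lie to the right and move further without that library (1.09, 0.79 and 0.46). Dnajb1 lies to the left (-0.30) with an interval that includes 0, and the other 5 lie between -0.11 and 0.08.

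Set side by side, the muscle-constitutive small heat shock proteins and the inducible genes differed in their spread over libraries. Each class was given a score per library, the mean over its genes of log2(FPKM + 0.5) less the WT mean. The score of Cryab, Hspb6, Hspb7 and Hspb1 was -0.13, 0.87, 0.38 and 0.62 in KO replicates 1 to 4, against -0.07, -0.08, 0.29 and -0.14 in WT replicates 1 to 4. The score of Hspa1a with Hspa1b, Hsp90aa1, Dnaja1 and Dnajb1 was -0.25, -0.17, 0.05 and -0.01 in KO replicates 1 to 4, against 0.08, -0.23, 0.16 and -0.01 in WT replicates 1 to 4. The small heat shock protein scores of KO replicates 2 to 4 exceeded all WT scores, and the inducible scores overlapped between the groups, with the highest in WT replicate 3 and the lowest in KO replicate 1. The difference of the scores, small heat shock proteins less inducible genes, was 0.53 ± 0.40 in the KO group and 0.00 ± 0.16 in the WT group (SD, n = 4). No test is given for scores over genes chosen with results known.

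Several genes of slow or oxidative fibres were high in the same KO libraries as Cryab, Hspb6 and Hspb7, and others of the list were not. Their score over 12 genes was -0.04, 0.68, 0.85 and 0.75 in KO replicates 1 to 4, against 0.00, -0.35, 0.29 and 0.06 in WT replicates 1 to 4. Myoglobin, Mb, which stores oxygen, had 1838, 4704, 3645 and 4010 FPKM in KO replicates 1 to 4, against 1624, 1695, 1686 and 1937 FPKM in WT replicates 1 to 4. Myh2, the myosin of fast oxidative fibres, had 125, 494, 447 and 391 FPKM in KO replicates 1 to 4, against 127, 96.6, 141 and 156 FPKM in WT replicates 1 to 4. In both genes, as in Cryab, KO replicate 1 was the low library of its group. The slow myosin value, joined for Myh6 and Myh7, had 27.1, 29.9, 36.4 and 26.4 FPKM in KO replicates 1 to 4, against 30.5, 23.0, 41.5 and 33.9 FPKM in WT replicates 1 to 4, and the groups overlapped (log2 fold change -0.09, limma adjusted p = 0.905). Tnnc1, the slow troponin C, stood at 0.17 and Atp2a2, the slow calcium pump, at 0.15 (limma adjusted p = 0.734 and 0.855). All 12 oxidative markers were tested, 0 passed and 6 were higher at an unadjusted p under 0.05, where 7.5% of all tested genes were. Without KO replicate 1, 5 of 12 passed as higher, where 0.951% of all tested genes did: Mb, Myh2, Myl2, Casq2 and Pln, with limma adjusted p values of 0.00647 to 0.0470. That library was left out for standing apart in these same genes, so this count is no separate evidence of a difference. The summed FPKM of the 12 was 2986 to 6810 in the KO group and 2584 to 3208 in the WT group. The part of fibre makeup in the small heat shock protein values was not tested.

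Markers of other cell types are given in the same way. Smooth muscle, which is rich in Hspb6 and Cryab, was marked by Myh11 at 3.73 ± 0.3496 FPKM in the KO group and 4.32 ± 0.682 FPKM in the WT group, and by Acta2 at 23.4 ± 2.40 FPKM in the KO group and 30.4 ± 5.57 FPKM in the WT group (SD, n = 4). For Acta2 the log2 fold change was -0.35 (limma unadjusted p = 0.0267, adjusted p = 0.424). Smtn, the smooth muscle gene for smoothelin, went the other way, at 46.5 ± 4.96 FPKM in the KO group and 38.2 ± 5.48 FPKM in the WT group (log2 fold change 0.29, limma unadjusted p = 0.0363, adjusted p = 0.4496), and KO replicates 2 to 4 lay above all WT libraries. With or without KO replicate 1, 0 of 6 tested markers passed, and the 7 listed ones, which include Des of skeletal muscle, summed to 971 to 1070 FPKM in the KO group and 902 to 1060 FPKM in the WT group. Endothelial markers, 0 of 6 past the test and none at 0, scored -0.32, 0.47, 0.02 and 0.45 in KO replicates 1 to 4, against -0.03, -0.18, 0.19 and 0.01 in WT replicates 1 to 4, and summed to 63.6 to 119 FPKM in the KO group and 71.2 to 96.6 FPKM in the WT group. They were lowest in KO replicate 1 and highest in KO replicates 2 and 4; the small heat shock protein score was also highest in those 2 libraries, and lowest in WT replicate 4. Erythroid genes, 0 of 5 past the test and none at 0, summed to 652 to 3171 FPKM in the KO group, with KO replicate 1 the highest, and 509 to 1334 FPKM in the WT group. No endothelial or erythroid marker passed without KO replicate 1 either, 0 of 6 and 0 of 5, nor did any of the macrophage, fibroblast, Schwann or satellite cell markers in either fit.

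Adipocyte scores were lowest in KO replicates 2 to 4, and fast fibre scores in KO replicates 2 and 4. Adipocyte markers scored 0.05, -0.48, -0.64 and -0.98 in KO replicates 1 to 4, against -0.31, 0.15, 0.08 and 0.08 in WT replicates 1 to 4. Of 6, none was at 0, 0 passed and 3 were lower at an unadjusted p under 0.05, where 2.76% of all tested genes were, and they summed to 283 to 456 FPKM in the KO group and 326 to 429 FPKM in the WT group. Without KO replicate 1, 1 passed as lower, the leptin gene Lep, with a log2 fold change of -2.05 (limma adjusted p = 0.0105). Fast glycolytic fibre genes, 9 above 0 in every library, scored 0.12, -0.30, -0.11 and -0.37 in KO replicates 1 to 4, against -0.05, 0.12, -0.15 and 0.08 in WT replicates 1 to 4. Of 11 tested, 0 passed with or without KO replicate 1, and 2 were lower at an unadjusted p under 0.05, Mybpc2 and Pfkm. The part of any of these cell types in the heat shock values was not tested.

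Early response genes, which rise within minutes of stress or handling, were given beside the inducible chaperones. Of 12 listed, 10 were tested, 0 passed, and 4 were lower in the KO group at an unadjusted p under 0.05, where 2.76% of all tested genes were lower, and 0 of 10 passed without KO replicate 1. Fos had 3.93, 4.40, 4.26 and 5.28 FPKM in KO replicates 1 to 4, against 13.6, 10.9, 5.40 and 12.1 FPKM in WT replicates 1 to 4 (log2 fold change -1.08, limma adjusted p = 0.336). The groups of Fos and of Atf3 did not overlap, where 1.61% of all tested genes did not overlap and were lower. The score of the 10 genes was -0.79 to -0.34 in the KO group and -0.34 to 0.30 in the WT group, and the ranges met at the edge. Their part in the value of Dnajb1 was not tested.

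**Figure D3:**
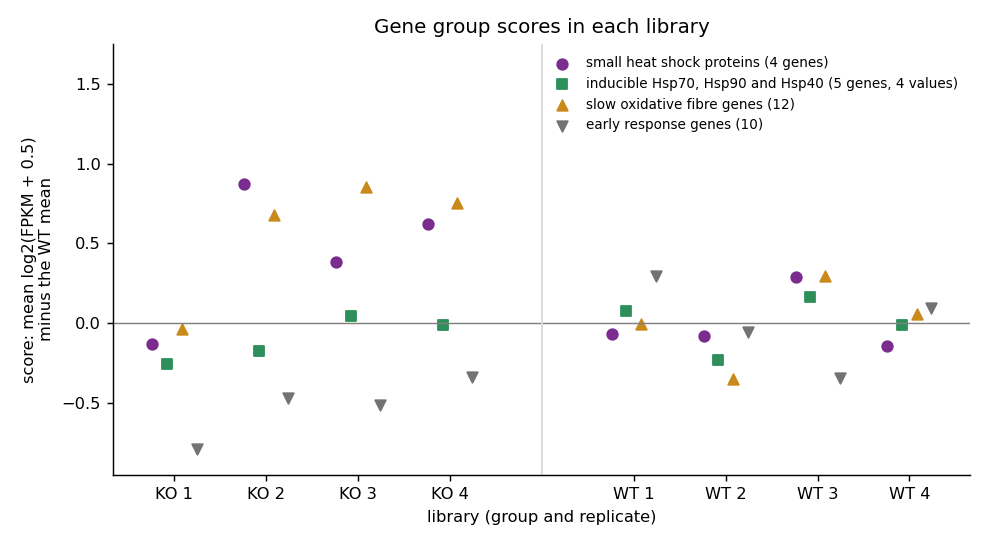
Score of 4 gene groups in each library, as mean log2(FPKM + 0.5) less the WT mean, with KO replicates at the left and WT replicates at the right. Small heat shock proteins and slow oxidative fibre genes are high in KO replicates 2 to 4 (0.38 to 0.87 and 0.68 to 0.85) and near 0 in KO replicate 1, while inducible genes stay between -0.25 and 0.16.

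Cryab has a neighbour in opposite orientation, Hspb2, on chromosome 9. Hspb2 is a small heat shock protein of muscle that binds the kinase DMPK, and lies at 50751078 to 50752354 on the minus strand of mm10. Cryab (ENSMUSG00000032060) lies at 50751325 to 50756636 on the plus strand, and the 2 annotated genes overlap. Hspb2 had 151, 144, 140 and 142 FPKM in KO replicates 1 to 4, against 138, 153, 138 and 141 FPKM in WT replicates 1 to 4. The groups overlapped, and the KO libraries where Cryab was high lay inside the WT range. The ratio of Cryab to Hspb2 was 4.32, 10.1, 7.75 and 9.33 in KO replicates 1 to 4, against 5.202, 4.86, 6.40 and 4.44 in WT replicates 1 to 4, with KO replicate 1 the lowest of all. For Hspb2 the log2 fold change was 0.02, with a 95% interval of -0.12 to 0.16 (limma adjusted p = 0.941). Other muscle members gave no difference past the spread: Hspb8, the partner of Bag3, averaged 294 ± 17.2 FPKM in the KO group and 285 ± 38.3 FPKM in the WT group, and Hspb3 averaged 36.9 ± 3.66 FPKM in the KO group and 34.5 ± 5.70 FPKM in the WT group (SD, n = 4). Of 6 other small members, Cryaa is listed at 0 in all 8 libraries and Hspb9 did not pass the filter.

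Co-chaperones of the Hsp90 and Hsp70 cycles gave small differences, and 0 tested genes of the 10 other chaperone lists passed. After rescaling to an equal sum of named genes, the medians of all 10 lists were below 0 (-0.27 to -0.04), with the median of all genes at -0.18. Without KO replicate 1, 2 genes of these lists passed as higher, Hspa4l and Fhl1, where 0.951% of all tested genes passed as higher and 0.101% as lower. KO replicate 1 was the lowest KO library in both genes, so this count is no separate evidence of a difference. Among 18 genes of the Hsp90 cycle, 14 were above 0, where 6464 of all 11878 tested genes were. The median of the 18 was 0.09 against 0.02 for all tested genes. Ahsa1, which speeds up the ATPase of Hsp90, had 94.7, 109, 111 and 101 FPKM in KO replicates 1 to 4, against 82.8, 86.7, 85.7 and 88.7 FPKM in WT replicates 1 to 4 (log2 fold change 0.27, SE 0.07; limma adjusted p = 0.347). Stip1, which links Hsp70 to Hsp90, had 47.0, 49.2, 56.9 and 46.6 FPKM in KO replicates 1 to 4, against 42.8, 40.5, 41.1 and 42.8 FPKM in WT replicates 1 to 4 (0.25, SE 0.08; limma adjusted p = 0.353). In both genes the groups did not overlap, KO replicate 1 included, yet neither passed. Over all tested genes, 3.89% did not overlap and were higher, among them other genes of the chaperone lists. Among 10 Hsp70 co-chaperones, with a median of 0.05, Bag3, which joins Hsp70 to small heat shock proteins at the Z-disc, had 65.8, 104, 83.3 and 104 FPKM in KO replicates 1 to 4, against 68.2, 60.8, 77.5 and 69.0 FPKM in WT replicates 1 to 4 (0.35, limma adjusted p = 0.472). Bag2 stood at 0.28 (limma adjusted p = 0.417).

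Among 8 other Hsp70 and Hsp110 genes all log2 fold changes were above 0, with a median of 0.16, where 6464 of all 11878 tested genes were above 0. Hspa4l, an Hsp110 that exchanges the nucleotide of Hsp70, had 2.66, 5.202, 4.56 and 5.22 FPKM in KO replicates 1 to 4, against 2.78, 2.21, 2.75 and 2.63 FPKM in WT replicates 1 to 4. It had the pattern of Cryab, with KO replicate 1 inside the WT range (log2 fold change 0.63, SE 0.19, limma adjusted p = 0.353; 0.83 and 0.0180 without KO replicate 1). Hspa12a stood at 0.94 (limma adjusted p = 0.623), with 11.9 FPKM in KO replicate 2 and 0.924 to 3.74 FPKM in the other KO libraries. Among 11 other Hsp40 genes the median was -0.01, with Dnajb2 at 0.19 (limma adjusted p = 0.516) and Dnaja4 at 0.25 (limma adjusted p = 0.598).

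The factors that switch on heat shock genes did not stand apart. Hsf1 had 21.3 ± 1.01 FPKM in the KO group and 20.002 ± 1.45 FPKM in the WT group (SD, n = 4; log2 fold change 0.09, limma adjusted p = 0.727). Hsf2 had 14.4 ± 1.15 FPKM in the KO group and 13.5 ± 1.65 FPKM in the WT group (0.09, limma adjusted p = 0.795). Of the 5 tested genes of this list, Hsbp1l1, a relative of the HSF1-binding protein Hsbp1, stood at 0.66 (limma adjusted p = 0.353) and Hsbp1 itself at 0.09 (limma adjusted p = 0.712).

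In the other chaperone lists 0 genes passed. Among 10 mitochondrial chaperones and proteases, 9 were above 0, with a median of 0.12, where 6464 of all 11878 tested genes were above 0. Hspe1, the lid of the Hsp60 chamber, had 184, 212, 232 and 179 FPKM in KO replicates 1 to 4, against 140, 166, 162 and 178 FPKM in WT replicates 1 to 4 (log2 fold change 0.32, limma adjusted p = 0.382), and Grpel1, which recharges mitochondrial Hsp70, stood at 0.19 (limma adjusted p = 0.424). Among 12 chaperones of the endoplasmic reticulum the median was -0.05, with Dnajc3 at -0.15 (limma adjusted p = 0.621) and Dnajb11 at 0.09 (limma adjusted p = 0.694). Among 14 genes of the TRiC chamber and prefoldin of the cytosol, which fold actin and tubulin, the median was 0.06, with Pfdn4 at 0.41 (limma adjusted p = 0.422) and Pfdn2 at 0.24 (limma adjusted p = 0.502).

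Of 9 structural partners of the small heat shock proteins, 0 passed over all libraries, with a median of -0.05. Des, the intermediate filament that Cryab guards, had 930 ± 51.1 FPKM in the KO group and 890 ± 66.9 FPKM in the WT group (SD, n = 4; log2 fold change 0.07, limma adjusted p = 0.824). Flnc, the filamin that Hspb7 and Bag3 bind, stood at -0.05 (limma adjusted p = 0.942), and the intermediate filament gene Synm at -0.25 (limma adjusted p = 0.540). Fhl1, a LIM protein of the sarcomere, had 421, 1596, 974 and 1182 FPKM in KO replicates 1 to 4, against 520, 459, 643 and 471 FPKM in WT replicates 1 to 4. KO replicate 1 was below every WT library and the other KO libraries were above them (log2 fold change 0.85, limma adjusted p = 0.455; 1.24 and 0.0263 without KO replicate 1).

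**Figure D4:**
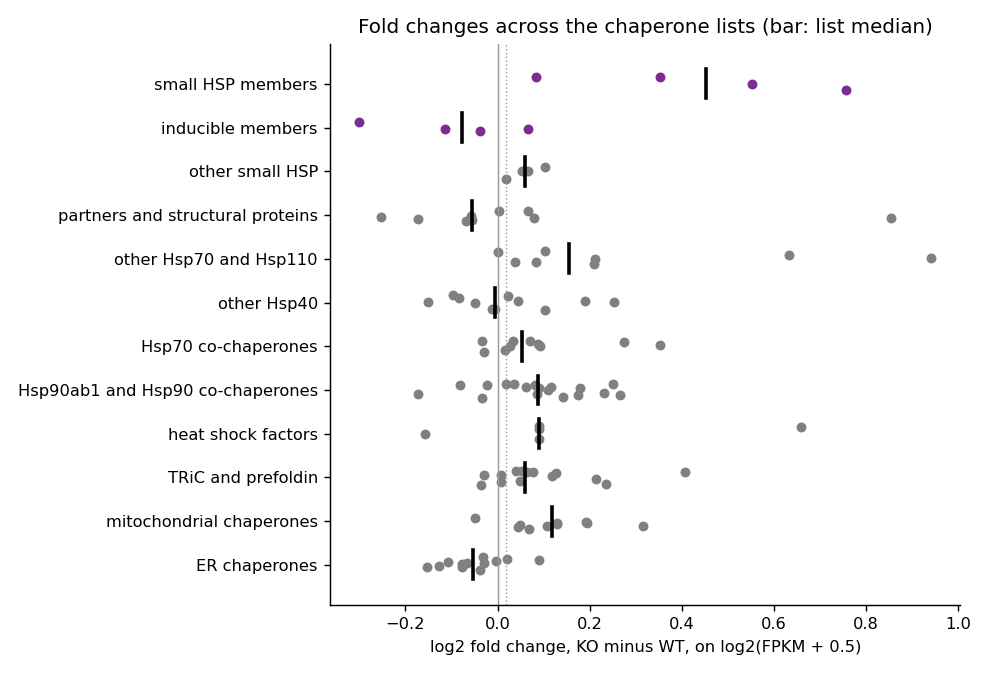
Log2 fold change, KO minus WT, of every tested gene in each chaperone list (points; purple, the genes described here) with the list median (bar) and the median of all tested genes (dotted line, 0.02). The small heat shock proteins described here have a median of 0.45, and the medians of the other lists run from -0.05 to 0.16, with -0.08 for the inducible genes.

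The genes whose pattern was most like each class were taken by Pearson's r over the 8 libraries, as a description with no test, since libraries share depth and tissue makeup and fall into a high and a low set. For the small heat shock proteins they were Fhl1 (r = 0.983), Ugp2 (0.982), Mfn1 (0.974), Ablim3 (0.969) and Pik3r6 (0.968). Ugp2 makes UDP-glucose for glycogen, and Mfn1 fuses mitochondria. With each group centred on its own mean, r was 0.951 to 0.974 for these 5 genes. Centring leaves KO replicate 1 below the other KO libraries, and the genes were picked for a high r, so this adds no support. For the inducible genes they were Abl2 (0.981), Fam134b (0.976), Pde4d (0.970), Cebpb (0.968) and Dusp11 (0.968). Their log2 fold changes were -0.17 to -0.08, and limma adjusted p values were 0.825 to 0.878.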

How the data were processed

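RNA of 8 quadriceps muscles was sequenced, 4 per group. Per the labels' protocols, mRNA was enriched on oligo(dT) beads after TRIzol extraction and sequenced as paired ends. The authors deposited 1 table of FPKM per library, per the file headers; the submitters' processing notes name the mm10 build, the aligners Bowtie2 2.2.6 and TopHat2 2.1.1, Cufflinks 2.2.1 and FastQC. Annotation, filters and strand setting are not given in the sources used here. Nothing says more of the animals' origin, so p-values measure the spread between these samples.

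Each table held 46036 entries. The 2379 without a name carried 65.8% to 93.2% of summed FPKM and were left out. For 344 repeated names the entry with the highest mean was kept. Depth was estimated from 4100 single-transcript genes of GENCODE M21 as the most crowded low value of FPKM times length less 200 bases, taken as 1 fragment, between bounds of 35 and 80, in 1e6 fragments. The files hold no counts, so no counting interval is given.

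The 11878 genes averaging 1 FPKM or more were compared as log2(FPKM + 0.5) by limma 3.58.1 (R 4.3.3), with genotype as the one term, KO over WT, and variances moderated along the mean. Tests were two-sided, with Benjamini-Hochberg adjustment over all of these genes and a threshold of 0.05. Fold changes on this scale understate low genes. The joined Hsp70 value was compared by an exact permutation test over 70 assignments. Marker scores used genes above 0 in every library. The fit was tested on simulated data. Members, lists and tests were chosen with earlier results of these data known. Genes named besides the members were Mss51, the 2 genes with the smallest p in each chaperone list, the 5 genes most like each class, and markers; Hspb2, Hsp90ab1, Hsf1, Hsf2, Des and Flnc were named for their roles after their values were seen. Alternatives were other pseudocounts, filters and scalings, fits with robust variances or array weights, a block for the replicate number, summed repeated names, and each library left out.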

Additional observations from a re-analysis of the deposited data

Results flagged for a closer look

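Among 74 groups of 4 libraries examined, 2 had a library whose gap to the nearest other library exceeded Dixon's 95% critical value, as a share of the group's range. Chance flags about 1 in 20 groups, so 2 of 74 is no more than chance gives. Hspb3 was 31.4 FPKM in KO replicate 2, below the 38.4 to 39.3 FPKM of the other KO libraries. Hspb8 was 320.0 FPKM in KO replicate 4, above the 284 to 289 FPKM of the other KO libraries. The low KO replicate 1 in Cryab, Hspb6 and Hspb7 did not meet this criterion, since the other KO libraries are themselves spread.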

How the results depend on the processing

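In every alternative run, 0 heat shock genes passed in either direction, and Cryab (0.34 to 0.79), Hspb6 (0.14 to 0.46), Hspb7 (0.52 to 1.09) and Dnajb1 (-0.50 to -0.17) kept their signs. The sign turned, always past no threshold, for Hsp90aa1 (-0.14) and Hspb1 (-0.13) after rescaling to an equal sum of named genes. It also turned for Hspb1 with quantile normalization (-0.016) and for Hspa8 with array weights (0.011). With 1 library left out, Hspa1a with Hspa1b ran from -0.22 to 0.024, also in the permutation test, Hspa8 from -0.13 to 0.053, Hsp90aa1 from -0.057 to 0.14, Dnaja1 from -0.11 to 0.024 and Hspb1 from -0.028 to 0.16. The joined Hsp70 value had no result at a mean of at least 5 FPKM, which it did not reach.

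Rescaling to an equal sum of named genes moved the median of all genes to -0.18 and the inducible score to -0.30. The sum leaves out the entries without a name, so this is not TPM over all entries. The list medians moved to -0.12 (heat shock factors), -0.21 (Hsp40), -0.12 (Hsp90 cycle), -0.16 (Hsp70 co-chaperones), -0.14 (small members), -0.27 (partners), -0.15 (TRiC and prefoldin), -0.095 (mitochondrial) and -0.26 (endoplasmic reticulum). The summed FPKM of named genes was 1.68e+06 in KO replicate 4 and 1.12e+06 in WT replicate 3, against 620662 to 718560 in the other libraries. The rescaling therefore lowered KO replicate 4 and WT replicate 3 most. With quantile normalization the Hsp90 cycle, Hsp70 co-chaperones, small members and mitochondrial lists had medians of 0.0376, 0.0013, -0.0068 and 0.0552. Without single libraries the Hsp70 co-chaperones ran from 0.025 to 0.095.

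Over all tested genes, 6 passed as higher and 0 as lower, at an unadjusted p under 0.05 891 and 328. The counts were 63 higher and 56 lower after rescaling to an equal sum of named genes. At a mean of at least 5 FPKM, with robust variances and with array weights, 1 was lower. With 1 library left out, 4 to 113 were higher and 0 to 12 lower, the most without KO replicate 1. In that setting 2 genes of the other chaperone lists passed, where 0.951% of all tested genes passed as higher and 0.101% as lower. In the other settings 0 genes of these lists passed. With the replicate block 0 genes passed, while the fold changes stayed, with Cryab at 0.55 (adjusted p = 0.614). Same-numbered libraries did not deviate together (r from -0.08 to 0.01, against -0.16 to 0.13 for other pairs). With so few libraries this cannot show whether the numbers pair the samples. The causes were not tested. Low genes, such as the inducible Hsp70 pair, rest on fewer fragments for their length. The part of depth in their spread was not tested.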
